A study of Mus musculus with 9 samples.

Results

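The module of endoplasmic reticulum (ER) protein folding and stress response comprised 33 genes, chosen by name for their roles in the folding of secretory proteins, in the sensing of misfolded protein and in its disposal. The choice was made with earlier results of these data known. All 33 were found among the 52025 genes of the deposited tables, and all 33 were among the 15495 genes tested. They fell into 5 roles, with 10 chaperones and co-chaperones, 5 protein disulfide isomerases (with the related Creld2), 6 stress sensors and transcription factors, 9 genes of ER-associated degradation and 3 genes of the translocon. The libraries came from Kunming mice at postnatal day 14, 15 or 16 (PD14, PD15 and PD16), with 3 libraries a day, 9 in all. The study addressed the first accumulation of follicular fluid, when the antrum of the ovarian follicle begins to form. The labels name no transgene, deletion or agent, and age was the only labeled difference between the groups. The labels give the tissue as ovary but the source as granulosa cells, whereas the methods of the study describe whole ovaries. Markers of both follicular cell types were abundant, with a summed FPKM per library of 2755 to 3606 for 10 granulosa cell markers and of 1106 to 1629 for 11 oocyte markers, so the libraries were not of granulosa cells alone. The study describes its transcriptomes as 3 independent ovaries a day, and neither it nor the labels say whether these came from separate animals, so the p-values measure the spread between these libraries.

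The ER is where proteins for the cell surface and for secretion enter the secretory pathway, fold, gain disulfide bonds and N-linked glycans, and are checked. When unfolded protein accumulates, the sensors Ern1 (IRE1), Eif2ak3 (PERK) and Atf6 signal to the nucleus, through spliced Xbp1, through translation of Atf4 and through cleavage of Atf6 itself. These factors raise chaperones, folding enzymes and the machinery that returns misfolded protein to the cytosol for degradation, and the proapoptotic factor Ddit3 (CHOP) follows when PERK signaling persists. Cleaved Atf6 and spliced Xbp1 are known to act through the ER stress response element (ERSE, which is CCAAT, then any 9 bases, then CCACG) and the related ERSE-II (ATTGG, any base, then CCACG) in promoters. In the growing follicle, granulosa cells secrete hormones and fluid proteins, and the oocyte secretes the zona pellucida and growth factors.

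At PD16 against PD14, the module showed 6 rises and no fall among its 33 genes at an adjusted p under 0.05. They were Derl3, Herpud1, Syvn1 and Edem1 of ER-associated degradation, the co-chaperone Dnajc3 and the transcription factor Xbp1. This is 18.2% of the module, beside 4.25% of all tested genes called in either direction, 2.36% called higher and 1.89% called lower. The members were chosen with earlier results of these data known, so contrasts with all genes describe the set and do not test it. The fitted change was above 0 in 31 of the 33 genes, against 52.2% of all genes, and the median log2 change was 0.24 for the module and 0.01 for all genes. The FPKM of every PD16 library lay above that of every PD14 library in 20 of the 33 genes (15% of all genes), and below it in 1, Edem2 (13.5%). The number of members called fell to 1 or 2 when any PD14 library or PD16 replicate 1 or 2 was left out, and Derl3 was called in each of these fits. Changes were small, with fold changes of mean FPKM from 0.903 to 1.90.

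The 2 daily steps gave fewer calls. From PD14 to PD15, limma called 0 of the 33 genes, while 7 had an unadjusted p under 0.05, all of them higher (7.22% of all genes), and 0.678% of all genes were called. The fitted change was above 0 in 25 genes (51.9% of all genes), with a median of 0.07, and 9 genes were higher in every PD15 library than in any PD14 library (10.4%), with none lower in every library (10.2%). From PD15 to PD16, Derl3 and Herpud1 rose, beside 0.729% of all genes called, and 5 genes had an unadjusted p under 0.05 and were higher (6.78%). The fitted change was then above 0 in 30 genes (53.1%), with a median of 0.09, and 7 genes were higher in every PD16 library than in any PD15 library (9.85%), with none lower in every library (9.73%). This count of 2 became 1 without PD14 replicate 3, PD15 replicate 3 or PD16 replicate 2 or 3, and 0 without PD15 replicate 1 or 2 or PD16 replicate 1. The F test over the 3 days called Derl3, Herpud1 and Syvn1, beside 3.03% of all genes, and 1 member without PD16 replicate 1. The comparisons with PD14 share its libraries, so their values are given side by side and not as separate evidence. RNA was taken from a mixed tissue, in which more cells of a type and more RNA per cell cannot be told apart.

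**Figure D1:**
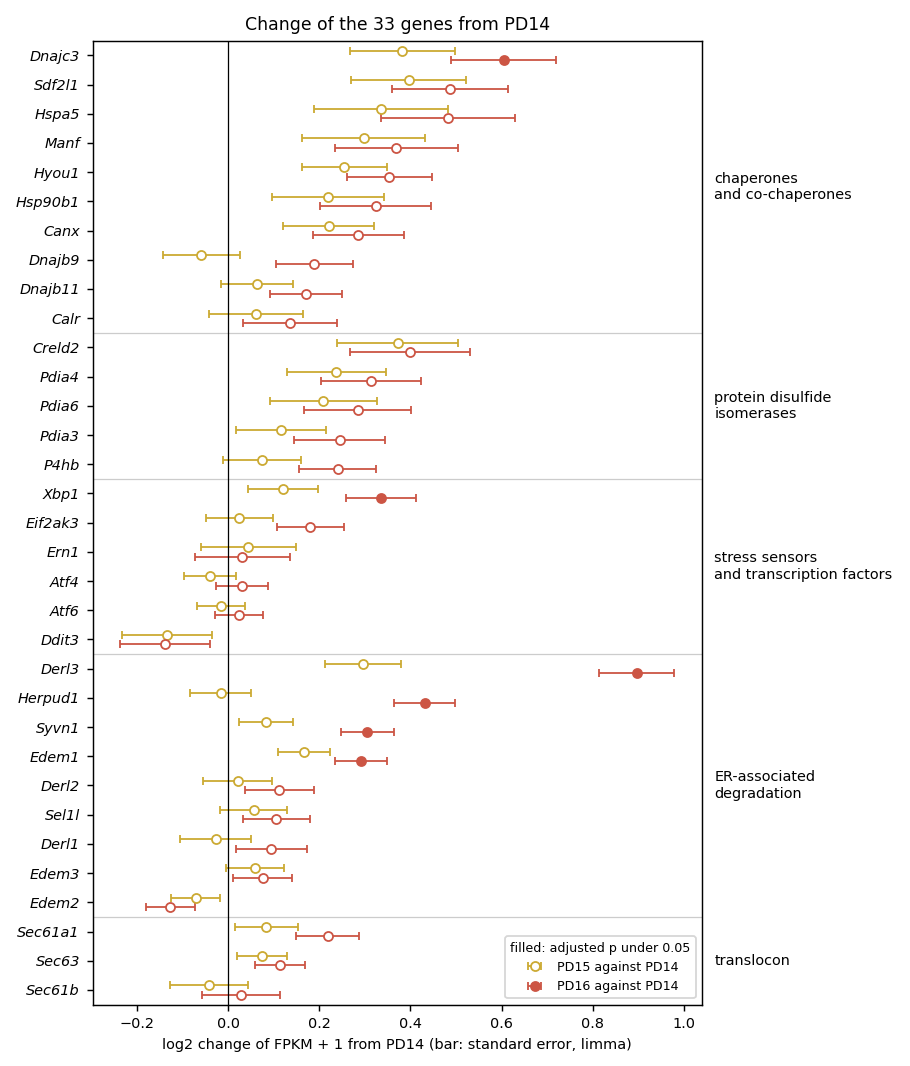
Log2 change of FPKM + 1 from PD14 to PD15 and to PD16 for the 33 genes, grouped by role on the vertical axis. Points are limma estimates, bars are standard errors and filled points have an adjusted p under 0.05. The 6 filled points all belong to PD16, with Derl3 at 0.90, and 31 of the 33 PD16 estimates lie above 0.

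The module spans a wide range of transcript levels. Calr and Hspa5 were the most abundant members, with mean FPKM over the 9 libraries of 377.4 and 377.2, and Eif2ak3 was the least abundant at 6.93. Among the tested genes, these levels stood at the percentiles of 99.5 for Calr and 49.3 for Eif2ak3. The 7 lowest members comprised the sensors Eif2ak3 and Atf6, Ddit3 and 4 genes of ER-associated degradation, whereas the 8 highest were chaperones and disulfide isomerases. From the depth recovered for each library, 20.17 to 28.58 M mapped fragments, a member was covered by between 290 fragments (Ddit3) and 54988 fragments (Hspa5) in a library.

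None of the 3 stress sensors passed the test in any comparison, beside 0.678% to 4.25% of all genes called. Ern1, the kinase and RNase that splices Xbp1, had FPKM of 17.7, 19.3 and 16.1 at PD14, 19.5, 19.1 and 16.3 at PD15, and 17.2, 16.4 and 20.8 at PD16. The 3 days overlapped, and the log2 change at PD16 was 0.03 ± 0.10 (SE, adjusted p = 0.889). Atf6, the sensor that is cleaved into a transcription factor, had 8.46, 8.69 and 8.22 at PD14, 8.29, 8.11 and 8.63 at PD15, and 8.74, 8.26 and 8.82 at PD16. Its libraries also overlapped on all 3 days, with a log2 change at PD16 of 0.02 ± 0.05 (adjusted p = 0.835). Eif2ak3, the kinase that halts translation, had 6.60, 6.55 and 6.49 at PD14, 7.50, 6.01 and 6.58 at PD15, and 7.67, 7.86 and 7.14 at PD16. The PD15 libraries of Eif2ak3 spread around the PD14 values. Every PD16 library lay above every PD14 library, but the log2 change of 0.18 ± 0.07 did not pass the test (adjusted p = 0.189).

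Of the 3 transcription factors below the sensors, Xbp1 rose. Its FPKM was 47.6, 43.2 and 47.6 at PD14, 50.6, 45.5 and 55.0 at PD15, and 60.2, 59.1 and 56.1 at PD16. Every PD16 library of Xbp1 lay above every other library, and PD15 overlapped with PD14. The log2 change was 0.34 ± 0.08 at PD16 against PD14 (adjusted p = 0.0449), 0.12 at PD15 against PD14 (0.503) and 0.21 at PD16 against PD15 (0.243). The call for Xbp1 lay close to the threshold and was lost in 7 of the 9 fits that left out 1 library, among them each PD14 and each PD16 library and PD15 replicate 1, with an adjusted p of up to 0.139. It was also lost without a filter on low FPKM and without an intensity trend. Taking the replicate number as a block, or comparing only the 2 days, ended the call too. FPKM counts both the spliced and the unspliced form, so these values are no measure of Ern1 activity.

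Atf4, which drives amino acid synthesis and antioxidant genes when translation is restricted, was the most abundant of these factors. Its FPKM was 89.1, 85.5 and 91.7 at PD14, 87.4, 83.2 and 88.4 at PD15, and 92.8, 88.9 and 90.0 at PD16. The 3 PD16 libraries lay above the 3 PD15 libraries by a narrow margin but overlapped with PD14, and the log2 change at PD16 against PD14 was 0.03 ± 0.06 (adjusted p = 0.803). Ddit3 had 9.05, 10.1 and 10.6 at PD14, 9.58, 8.51 and 8.72 at PD15, and 9.51, 7.51 and 9.85 at PD16. The days overlapped, and its log2 change at PD16 was -0.14 ± 0.10 (adjusted p = 0.438), with a range of -0.20 to -0.03 over the fits without 1 library, nearest to 0 without PD16 replicate 2. Ddit3 and Edem2 were the 2 members with a fitted change under 0 at PD16.

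All 10 chaperones and co-chaperones had a fitted change above 0 at PD16 against PD14 (52.2% of all genes), with a median of 0.34 on the log2 scale. Dnajc3 was the 1 of them that passed the test, beside 4.25% of all genes called. Dnajc3 (P58IPK) encodes a lumenal partner of Hspa5 that is also known to inhibit PERK. Its FPKM was 40.5, 36.5 and 34.9 at PD14, 48.9, 42.9 and 55.4 at PD15, and 64.8, 57.9 and 49.7 at PD16. Every library of PD15 and of PD16 lay above every PD14 library, while PD15 and PD16 overlapped. The log2 change was 0.60 ± 0.12 at PD16 (adjusted p = 0.0270), 0.38 ± 0.12 at PD15 (0.173) and 0.22 ± 0.12 from PD15 to PD16 (0.426). The call was lost in 5 of the 9 fits without 1 library (each PD14 library, and PD16 replicates 1 and 2). Over the 9 fits the log2 change was 0.52 to 0.70, with an adjusted p of up to 0.0993. The call was also lost without a filter on low FPKM and with the replicate number as a block.

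Hspa5 (BiP, GRP78), the major Hsp70 chaperone of the ER and the protein that holds the sensors inactive, lies at chr2:34771970-34777547 on the plus strand (GENCODE M21, mm10). Its FPKM was 328.3, 289.1 and 305.4 at PD14, 396.2, 323.3 and 455.0 at PD15, and 474.1, 461.0 and 362.4 at PD16. Every PD16 library lay above every PD14 library, whereas PD15 overlapped with both. The mean FPKM was 1.41-fold higher at PD16, but the log2 change of 0.48 ± 0.15 did not pass the test (adjusted p = 0.0935), and neither did 0.33 ± 0.15 at PD15 (0.332). The spread between replicates was wide at PD15 (SD 66.0, n = 3) and PD16 (SD 61.1) beside PD14 (SD 19.7). The 160 bases before the RefSeq start of Hspa5 at 34772090 are shown because this promoter is the classical example of an ERSE, with the fixed letters of the exact match in capitals (chr2:34771930-34772089, plus strand, GRCm38.p6, the build of mm10). The GENCODE M21 gene begins upstream of the RefSeq start and upstream of the element, so part of this stretch lies within the GENCODE gene. All promoter positions here are relative to RefSeq starts.
Hspa5: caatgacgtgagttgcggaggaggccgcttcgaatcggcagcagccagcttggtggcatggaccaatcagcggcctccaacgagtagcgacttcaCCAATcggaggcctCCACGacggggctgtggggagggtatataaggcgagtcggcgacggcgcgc

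Sdf2l1, a component of the Hspa5 chaperone complex, had 27.6, 23.3 and 27.7 at PD14, 35.9, 30.8 and 37.8 at PD15, and 40.5, 41.3 and 30.4 at PD16. Both later days lay above PD14 in every library, and PD16 replicate 3 lay just below the lowest PD15 library. The log2 changes of Sdf2l1 were 0.49 ± 0.13 at PD16 (adjusted p = 0.0627) and 0.40 ± 0.13 at PD15 (0.196), the largest at PD15 in the module. Dnajb9 (ERdj4), a J-protein known as an Xbp1 target, had 22.4, 20.4 and 22.3 at PD14, 20.2, 18.8 and 23.5 at PD15, and 26.3, 25.1 and 23.2 at PD16. PD16 lay above PD14 throughout, but its lowest library fell below the highest of PD15. The log2 change of Dnajb9 was 0.19 ± 0.08 from PD14 to PD16 (adjusted p = 0.223) and 0.25 ± 0.08 from PD15 to PD16 (0.219).

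Of the other 6 chaperones, none passed the test in any comparison. Hyou1, an Hsp110-like exchange factor for Hspa5, had a log2 change at PD16 of 0.35 ± 0.09 (adjusted p = 0.0654) and mean FPKM of 49.1, 58.9 and 63.1 on the 3 days. Manf, a secreted cofactor of Hspa5, had 0.37 ± 0.13 (0.145), and Hsp90b1 (GRP94), the Hsp90 of the ER, had 0.32 ± 0.12 (0.157). The lectin chaperones differed in size, with 0.29 ± 0.10 for membrane-bound Canx (0.132) and 0.14 ± 0.10 for lumenal Calr (0.468). Dnajb11, a J-protein that delivers unfolded chains to Hspa5, had 0.17 ± 0.08 (0.239). PD16 lay above PD14 in every library for Hyou1, Manf, Hsp90b1 and Canx, but not for Calr and Dnajb11.

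The 5 disulfide isomerases and relatives likewise had a fitted change above 0 at PD16 (52.2% of all genes), with a median of 0.28. None was called in any comparison. Of all genes, 0.678% and 4.25% were called at PD15 and PD16 against PD14, and 0.729% at PD16 against PD15. Creld2, a stress-inducible protein with disulfide isomerase activity, had the largest change, with 56.8, 50.7 and 58.0 FPKM at PD14, 78.5, 59.0 and 79.0 at PD15, and 73.9, 83.5 and 62.9 at PD16. Both later days lay above PD14 in every library and overlapped with each other. The log2 change of Creld2 was 0.37 ± 0.13 at PD15 (adjusted p = 0.236), 0.40 ± 0.13 at PD16 (0.116) and 0.03 from PD15 to PD16 (0.957). For Pdia4 and Pdia6, both partners of Hspa5, the change at PD16 was 0.31 ± 0.11 (0.129) and 0.28 ± 0.12 (0.192). Pdia3, which works with Calr and Canx on glycoproteins, had 0.24 ± 0.10 (0.184) and P4hb, the abundant classical isomerase, 0.24 ± 0.09 (0.136). P4hb alone of the 5 lay higher at PD16 than at PD15 in every library.

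ER-associated degradation held 4 of the 6 genes that rose, and 4 of its 9 members passed the test at PD16, beside 2.36% of all genes called higher. Of these 4, Derl3 and Herpud1 were also called without a filter on low FPKM, and Syvn1 and Edem1 were not. Derl3 encodes a member of the derlin family of the retrotranslocation machinery and lies at chr10:75893413-75895941 on the plus strand. Its FPKM was 20.2, 23.3 and 24.1 at PD14, 27.8, 27.5 and 28.3 at PD15, and 45.5, 44.9 and 38.3 at PD16. The 3 days did not overlap, and each later day was higher. Mean FPKM was 1.90-fold higher at PD16 than at PD14 and 1.54-fold higher than at PD15. The log2 change was 0.90 ± 0.08 at PD16 against PD14 (adjusted p = 0.00419), the largest of the module, and 0.60 ± 0.08 at PD16 against PD15 (0.0223), while 0.30 ± 0.08 at PD15 did not pass (0.151). Derl3 was called at PD16 against PD14 in each of the 9 fits without 1 library and in each of the 7 other alternatives, with an adjusted p of at most 0.0213. The call against PD15 was lost without PD15 replicate 1 or 2 or PD16 replicate 1 or 2 (adjusted p of up to 0.0877). It was also lost without a filter on low FPKM and with the replicate number as a block.
The 160 bases before the RefSeq start of Derl3, the gene with the largest change, hold an exact ERSE on the opposite strand, read here as its complement and marked in capitals (chr10:75893238-75893397, plus strand, RefSeq, GRCm38.p6).
Derl3: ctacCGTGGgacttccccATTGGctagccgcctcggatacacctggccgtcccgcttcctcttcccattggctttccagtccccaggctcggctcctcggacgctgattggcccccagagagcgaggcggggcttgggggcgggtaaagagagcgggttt

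Herpud1, an ER membrane protein that recruits the degradation complex, lies at chr8:94386438-94395377 on the plus strand. Its FPKM was 19.6, 17.4 and 19.1 at PD14, 17.9, 19.5 and 17.9 at PD15, and 27.3, 24.1 and 25.2 at PD16. PD14 and PD15 overlapped, and every PD16 library lay above all of the others. The log2 change was -0.02 ± 0.07 at PD15 (adjusted p = 0.935), 0.43 ± 0.07 at PD16 against PD14 (0.0149) and 0.45 ± 0.07 at PD16 against PD15 (0.0305). The direct test of the second step against the first gave a difference of 0.46 on the log2 scale with an adjusted p of 0.155, so the steps were not shown to differ. In that test limma called 0 of the 33 genes, with an unadjusted p under 0.05 for Herpud1 alone, which was higher in the second step (5.6% of all genes), beside 0.232% of all genes called. The signed change of the second step minus that of the first was above 0 in 18 of the 33 genes (51.2%). Without PD14 replicate 3 or PD16 replicate 1, the call of Herpud1 against PD14 was lost (adjusted p of up to 0.0597). Its call against PD15 held in 3 of the 9 fits without 1 library. That call was lost without PD14 replicate 3, any PD15 library, or PD16 replicate 1 or 3 (up to 0.111). It was also lost without a filter on low FPKM and with the replicate number as a block.
The 160 bases before the RefSeq start of Herpud1 are shown because it is the member that rose with an exact ERSE-II, in capitals (chr8:94386269-94386428, plus strand, RefSeq, GRCm38.p6).
Herpud1: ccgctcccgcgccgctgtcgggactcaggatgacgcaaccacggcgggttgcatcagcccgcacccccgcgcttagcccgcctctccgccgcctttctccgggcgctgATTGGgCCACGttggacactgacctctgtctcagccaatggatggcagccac

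Syvn1 (HRD1), the ubiquitin ligase at the core of the pathway, had 12.1, 12.0 and 12.1 at PD14, 13.7, 13.1 and 11.8 at PD15, and 14.8, 15.3 and 15.3 at PD16. Every PD16 library lay above every other, and PD15 reached down to PD14. The log2 change of Syvn1 was 0.31 ± 0.06 at PD16 against PD14 (adjusted p = 0.0280), 0.08 at PD15 (0.551) and 0.22 at PD16 against PD15 (0.129). Edem1, a mannosidase-like lectin that selects misfolded glycoproteins, had 12.1, 12.0 and 11.6 at PD14, 14.0, 13.6 and 12.9 at PD15, and 14.6, 15.7 and 14.2 at PD16. Its 3 days did not overlap. The log2 change of Edem1 was 0.29 ± 0.06 at PD16 (0.0286), 0.17 ± 0.06 at PD15 (0.219) and 0.13 from PD15 to PD16 (0.357). Leaving out any PD14 library, or PD16 replicate 1 or 2, ended the call of Syvn1 and of Edem1. Leaving out PD16 replicate 3 ended that of Syvn1. The adjusted p in these fits was up to 0.0934 for Syvn1 and 0.0996 for Edem1. Both calls were also lost with the replicate number as a block, and that of Edem1 with only the 2 days compared.

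The other 5 genes of the pathway did not pass the test. Sel1l, the adaptor that holds Syvn1 in its complex, had a log2 change at PD16 of 0.11 ± 0.07 (adjusted p = 0.430), beside 0.31 for Syvn1. The derlins other than Derl3 had 0.09 ± 0.08 for Derl1 (0.507) and 0.11 ± 0.08 for Derl2 (0.419), beside 0.90 for Derl3. Edem3 had 0.08 ± 0.06 (0.521). Edem2, which starts mannose trimming, had FPKM of 15.8, 16.3 and 17.1 at PD14, 15.5, 16.0 and 15.1 at PD15, and 15.4, 15.0 and 14.3 at PD16. Its PD16 libraries lay below those of PD14, with a log2 change of -0.13 ± 0.05 (0.198), against 0.29 for Edem1. These differences between paralogs were not tested.

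For the translocon, through which new chains enter the ER, 0 of 3 genes were called in any comparison by limma. The shares of all genes called were 0.678% and 4.25% at PD15 and PD16 against PD14, and 0.729% at PD16 against PD15. At PD16 against PD14, Sec61a1, the channel subunit, had a log2 change of 0.22 ± 0.07 (adjusted p = 0.103) and was higher in every PD16 library. Sec63, a J-protein of the membrane, had 0.11 ± 0.06 (0.257), also without overlap. Sec61b, a small channel subunit, had 0.03 ± 0.09 (0.879), and its days overlapped.

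**Figure D2:**
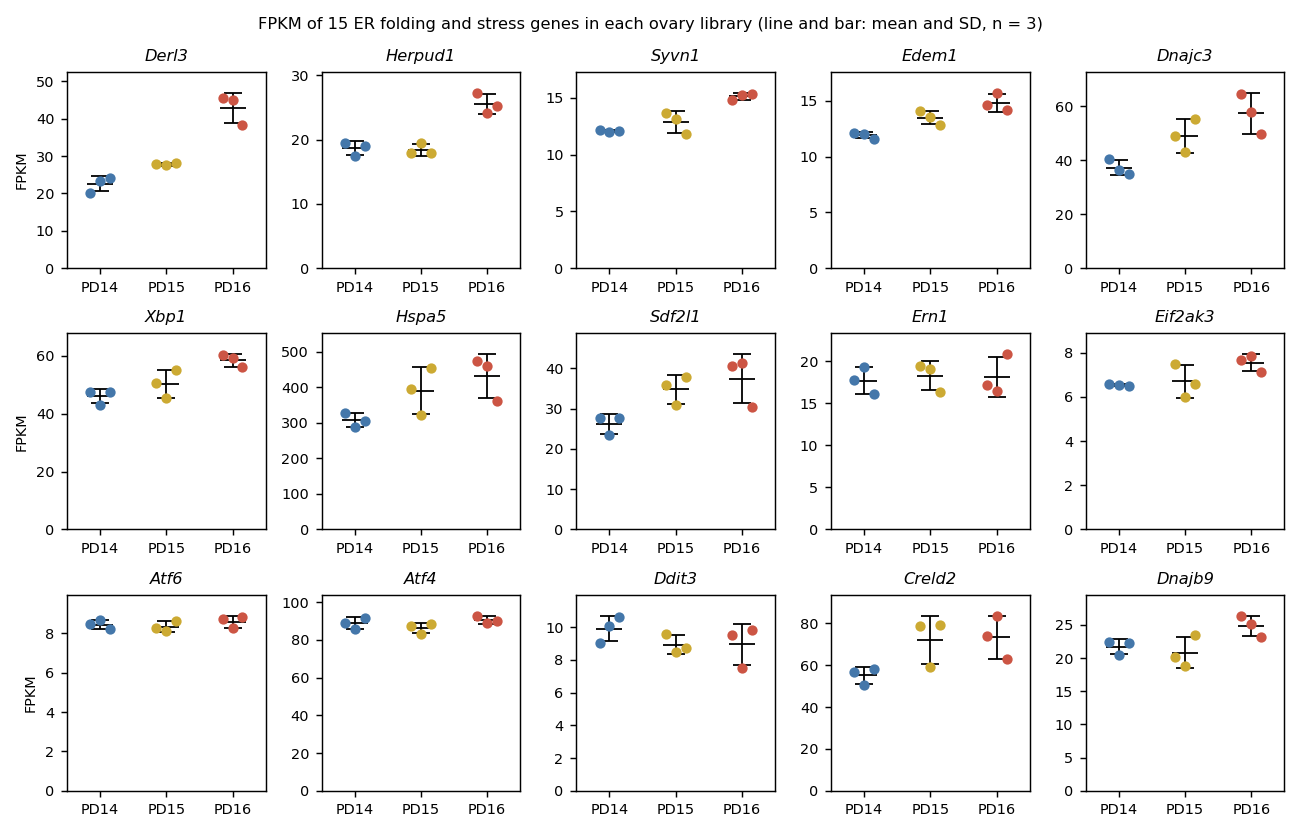
FPKM of 15 members in each library, by day on the horizontal axis, with a panel for each gene and vertical axes that start at 0. Points are libraries, and lines and bars are the mean and SD (n = 3). PD16 stands above the other days in Derl3 (38.3 to 45.5), Herpud1, Syvn1, Edem1 and Xbp1, whereas Ern1, Atf6 and Ddit3 overlap on all days.

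The replicates of a day differed in ways that ran across the folding genes. Each gene was expressed as its deviation in log2(FPKM + 1) from its mean over the 9 libraries. The median deviation of the 10 chaperones was 0.24 in PD16 replicates 1 and 2 but -0.04 in replicate 3, and that of the 5 isomerases 0.21, 0.21 and -0.06. At PD15, the chaperones stood at 0.05, -0.12 and 0.22 in replicates 1, 2 and 3. At PD14, all 3 libraries lay at or below -0.11. PD15 replicate 3 thus stood above PD16 replicate 3 for the chaperones. Among the degradation genes, Derl1, Derl2, Edem2 and Edem3 were likewise higher in PD15 replicate 3 than in PD16 replicate 3, and Derl3, Herpud1, Syvn1, Edem1 and Sel1l were lower. Summed over the module, the 33 genes took 0.774% to 0.838% of all FPKM at PD14, 0.833% to 0.922% at PD15 and 0.896% to 1.00% at PD16.

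**Figure D3:**
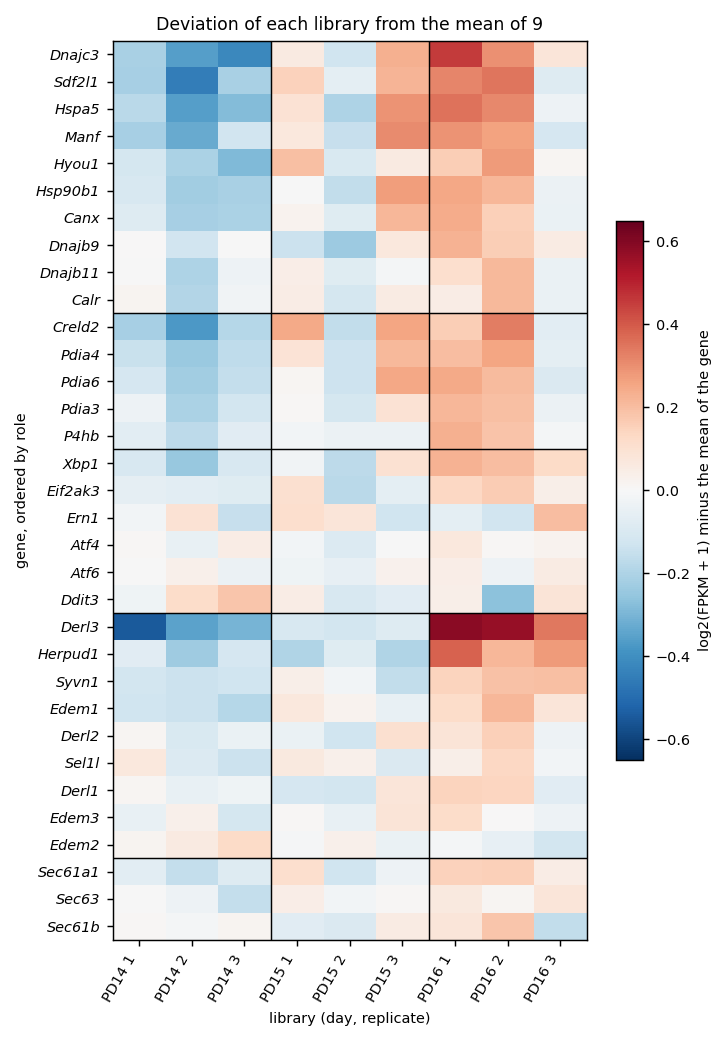
Deviation of log2(FPKM + 1) from the mean of each gene, for the 33 genes in rows by role and the 9 libraries in columns by day. Red is above and blue below the mean. Most chaperone and isomerase rows are blue at PD14 and red in PD15 replicate 3, apart from Calr and Dnajb9 in PD14 replicate 1 and Dnajb11 and P4hb in PD15 replicate 3, and all are red in PD16 replicates 1 and 2, while the Derl3 row is red in all 3 PD16 libraries.

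Cell type markers and RNA measures moved beside these values. The summed oocyte markers were 1155 to 1432 at PD14, 1504 to 1629 at PD15 and 1106 to 1186 at PD16. Of the 11 markers, Nlrp5 rose at PD15 against PD14, and Bmp15 rose at PD16 against PD14 (0.39). In the latter comparison Zp1, Zp2, Zp3, Gdf9, Ddx4, Nobox, Figla and Dppa3 had changes of -0.36 to -0.18, none of them called. Nlrp5 and Oosp1 stood at 0.04 there. Nlrp5 and Zp2 fell at PD16 against PD15, the step in which Derl3 and Herpud1 rose. The summed granulosa cell markers overlapped on all days, although Amh rose and Kitl and Cyp19a1 fell at PD16 against PD14 among the 10 markers. This sum came mostly from Inha (1780 to 2629 FPKM). Theca, stroma, macrophage and endothelial markers had no call in any comparison. The theca sum, 1134 to 2191 over the 9 libraries, came mostly from Hsd3b1 (1062 to 2091). The sum of 3 endothelial markers was 45.2 to 48.8 at PD14, 43.1 to 45.0 at PD15 and 40.9 to 43.4 at PD16, lower in every PD16 library than in any PD14 library, while the sums of theca, stroma and macrophage markers overlapped between PD14 and PD16. The sum of 4 red cell markers was 104.0 to 145.4 at PD14, 45.9 to 62.3 at PD15 and 60.2 to 115.0 at PD16, lower in every PD15 library than in any PD14 library, and 1 of the 4 fell at PD15 against PD14. For plasma and B cells, which hold much of this machinery, Jchain, Mzb1, Igkc and Cd79a were below an FPKM of 1 in every library. The sum of the 6 plasma and B cell markers, 61.2 to 75.6 at PD14 and 70.8 to 89.1 at PD16, came mostly from Sdc1, and neither Sdc1 nor Ighm was called. The oviduct markers Foxj1 and Ovgp1 were also below 1. The mitochondrial share of FPKM was 5.19% to 6.27%, highest in PD15 replicate 3 and next in PD16 replicate 1. The part of cell composition in the changes of the module was not tested.

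The promoters of 28 of the 33 genes were compared with 32851 RefSeq promoters of 300 bases, from 250 before to 50 after the RefSeq start. An exact ERSE on either strand was present in 9 of the 28 members (Calr, Canx, Creld2, Derl3, Dnajc3, Hsp90b1, Hspa5, Pdia6 and Syvn1) and in 0.119% of all promoters. An exact ERSE-II was present in Dnajb11 and Herpud1 and in 0.0365% of all promoters. The members were chosen for roles in the response in which these elements are known to act, so the contrast is descriptive. All promoters include those of the members, 29 sequences for the 28 genes. The 2 elements did not overlap in any member. The UPRE, a further element linked to Xbp1 (TGACGTGG), was found in 0 of the 28 members and 0.676% of promoters, and the element of Atf4 (CARE, TGATGNAA) in Herpud1 and 3.97% of promoters. Only these letters in this window were searched, and a match is no proof of binding. No promoter sequence was used for Atf6, Hyou1, Manf, Sec61a1 and Derl1.
Sites in 4 further members are shown with 5 bases on each side, in the direction of the element, to set the 2 other members that rose with an ERSE beside the smallest change among the ERSE members and the site of Dnajb11. Coordinates cover the element without its flanks.
Dnajc3 (chr14:118937827-118937845, plus strand): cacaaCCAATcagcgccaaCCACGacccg
Syvn1 (chr19:6046532-6046550, plus strand): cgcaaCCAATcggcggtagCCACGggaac
Calr (chr8:84847075-84847093, plus strand): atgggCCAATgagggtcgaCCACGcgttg
Dnajb11 (chr16:22857852-22857862, plus strand): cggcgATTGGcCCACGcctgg

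Of the 9 members with an ERSE, 3 rose at PD16 (Derl3, Dnajc3 and Syvn1), beside 2.36% of all genes called higher, all 9 had a fitted change above 0 (52.2% of all genes), and the median was 0.32. The calls of Dnajc3 and Syvn1 were lost in 5 and 6 of the 9 fits without 1 library. Of the 19 matched members without it, 3 also rose (Herpud1, Xbp1 and Edem1), 17 were above 0 and the median was 0.17. The difference between these medians was not tested. Of the 12 other tested genes with an exact ERSE, among them the near-identical Xlr3a, Xlr3b and Xlr3c, limma called 0 at PD16 against PD14, with a median of -0.05. Of the 6 other tested genes with an exact ERSE-II, 1 rose (Rcl1, 0.30, adjusted p = 0.0223), and their median was 0.06. The position and strand of the element varied, with first bases from position -212, relative to the RefSeq start, for one of the 2 sites in Hsp90b1 to -44 in Syvn1, and the ERSE-II of Dnajb11 lay at positions 7 to 17 after the start.

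**Figure D4:**
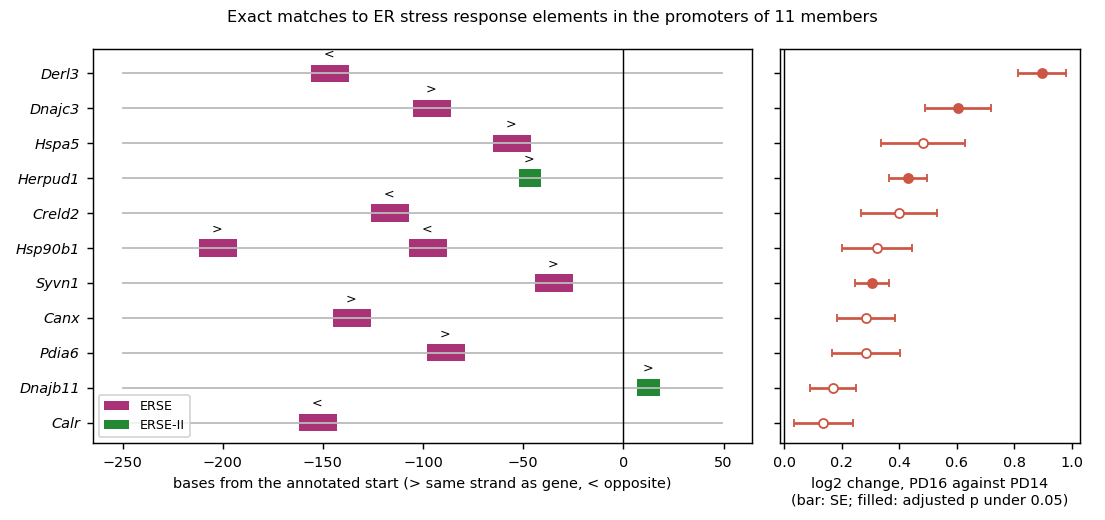
Left, positions of exact ERSE and ERSE-II matches in the promoters of 11 members, in bases from the RefSeq start, with the strand marked above each box. Right, log2 change at PD16 against PD14 with its standard error, filled where the adjusted p was under 0.05. Genes run from the largest change (Derl3, 0.90) to the smallest (Calr, 0.14), and Hsp90b1 holds 2 sites.

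The wider pathway was examined through 6 lists of 174 further ER and stress genes, none of them a member. Their calls at PD16 stand beside the 4.25% of all genes called. Like the members, the lists were chosen with earlier results of these data known. Of 21 tested regulators of the unfolded protein response, 8 had a fitted change above 0 at PD16 against PD14, 1 rose (Creb3l2, a membrane-bound factor of secretory cells, with 0.40 ± 0.07 and adjusted p = 0.0223), none fell and the median was -0.01. The share of all genes above 0 was 52.2%. Of 23 tested targets of Atf4 and CHOP, 15 were above 0 with a median of 0.06. At PD15 against PD14, 6 of the 23 were above 0 (51.9% of all genes), with a median of -0.06. Among these targets, Cth, an enzyme of cysteine synthesis, rose by 0.44 ± 0.09 at PD16 against PD14 (adjusted p = 0.0301). In the same comparison the oxidase Ero1l rose by 0.29 ± 0.06 (0.0331), whereas Ddit4, an inhibitor of mTOR signaling, fell by 0.63 ± 0.09 (0.0103).
The lumenal folding factors outside the module had 24 of 40 above 0 and a median of 0.03, with a rise of the ER calcium pump Atp2a2 (0.30 ± 0.07, adjusted p = 0.0411). N-glycosylation and glycan trimming had 20 of 24 above 0 and a median of 0.09, with Pgm3, an enzyme of sugar nucleotide synthesis (0.33 ± 0.07, 0.0396), and the first glucosidase Mogs (0.29 ± 0.07, 0.0497) called higher. In the 27 tested genes of ER-associated degradation outside the module, limma called 0, with 14 above 0 and a median of 0.01. An unadjusted p under 0.05 at PD16 against PD14 was found in 6 of these 27 genes, 6 of 21 regulators, 7 of 23 targets of Atf4 and CHOP, 5 of 40 lumenal folding factors, 10 of 24 glycosylation genes and 11 of 30 translocation genes, beside 22.8% of all genes. Translocation and signal peptide cleavage had 23 of 30 above 0 and a median of 0.12, and Srprb, a subunit of the signal recognition particle receptor, rose (0.35 ± 0.07, 0.0256). At PD15 against PD14 no gene of the 6 lists was called by limma, with an unadjusted p under 0.05 in 6 of 23 targets of Atf4 and CHOP (Asns, Ddit4, Sesn2, Bbc3 and Aars with a change below 0 and Slc7a11 with one above 0), 4 of 40 lumenal folding factors, 4 of 24 glycosylation genes, 1 each of the regulators and the degradation genes and 0 of 30 translocation genes, beside 14.7% of all genes. At PD15 against PD14, 27 of 30 translocation genes were above 0 (51.9% of all genes), with a median of 0.06. Above 0 too were 19 of 40 lumenal folding factors, 15 of 24 glycosylation genes, 15 of 27 degradation genes and 10 of 21 regulators. At PD16 against PD15 Cth was called (0.50 ± 0.09, 0.0462), and the other 5 lists had no call. Each of the 5 had 3 or 4 genes at an unadjusted p under 0.05, beside 14.1% of all genes. In this step 24 of 30 translocation, 21 of 24 glycosylation and 29 of 40 folding genes were above 0 (53.1% of all genes). The counts were 17 of 23 targets, 16 of 27 degradation genes and 13 of 21 regulators in the rest.

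**Figure D5:**
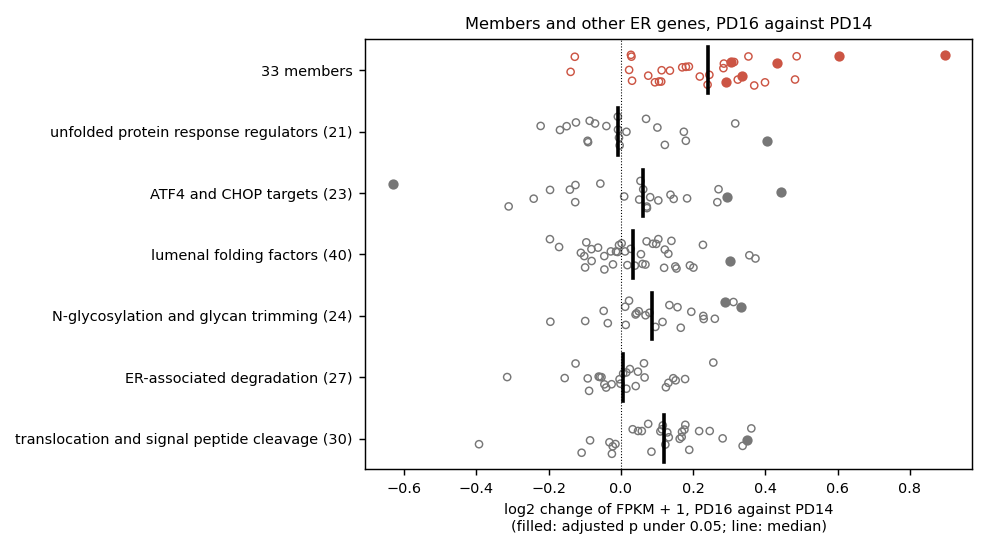
Log2 change of FPKM + 1 at PD16 against PD14 for the 33 members and the tested genes of 6 further lists (number tested in brackets). Circles are genes, filled where the adjusted p was under 0.05, and vertical lines are medians. The median of the members lies at 0.24, and those of the other lists lie between -0.01 and 0.12.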

How the data were processed

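RNA was sequenced from 9 libraries, 3 for each of PD14, PD15 and PD16. The authors deposited FPKM, a measure of mapped fragments that accounts for the length of the gene and the depth of the library, as a separate table for each library. The submitters' processing notes name HISAT2 2.0.5 and mm10, while the counter and the annotation are not given in the sources used here. The kit is not stated to mark strand, and no single other gene overlaps more than 10.3% of the exons of a member (Hsp90b1, which further genes also overlap). Depth was recovered from the steps of low FPKM with exon lengths of GENCODE M21, which also gave the coordinates. In each library 96.1% to 96.8% of low values were whole multiples of a fragment within 0.05. Rescaling between libraries was not needed for the main values, since median-ratio factors were 0.994 to 1.01.

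FPKM as deposited was analysed as log2(FPKM + 1), and fold changes on this scale understate those of low genes. A gene was tested if its mean FPKM exceeded 1 on any of the 3 days, which left 15495, with limma 3.58.1 in R 4.3.3 (intensity trend, all 9 libraries in 1 fit, two-sided), with the Benjamini-Hochberg adjustment over all of them. A call needed an adjusted p under 0.05. The script was first tested on simulated data, in which 200 of 15495 genes were shifted at PD16. At PD16 against PD14 it recovered 0% of those shifted by 0.25 on the log2 scale, 57.5% at 0.5 and 87% at 1. A member that did not pass the test is therefore not shown to be unchanged. The contrast of the second step against the first was added after seeing the data.

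Full values are given for the sensors, their factors and Hspa5, for members that passed a test, and for the 3 members with the largest change in each comparison. Other members are given by change and error, and Edem2 was given in full after its values were seen. The members and lists were chosen with earlier results of these data known. Of the 174 list genes, those absent by symbol or below the filter were left out. Promoters came from the RefSeq table (GRCm38.p6). The alternatives were a pseudocount of 0.1, no filter or a mean FPKM above 5, median-ratio scaling, no intensity trend, the replicate number as a block, only the 2 days compared, and each library left out in turn. Python 3.11.15, NumPy 2.4.6, pandas 2.3.3 and Matplotlib 3.10.9 were used.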

Additional observations from a re-analysis of the deposited data

How the results depend on the processing

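Derl3 at PD16 against PD14 was the only member called in every fit run. Without a filter on low FPKM, the genes called were 29 at PD15 against PD14, 172 at PD16 against PD14, 24 at PD16 against PD15, 95 in the F test and 21 for the second step against the first, in place of 105, 659, 113, 469 and 36, and the members called were 2 at PD16 against PD14 and 0 at PD16 against PD15, in place of 6 and 2. This setting tests more genes. With a mean FPKM above 5, the counts were 63 at PD15 against PD14 and 20 for the step contrast, the F test called 5 members in place of 3, and 7 members were called at PD16 against PD14, with Sdf2l1 gained. With only the 2 days compared, 47 genes were called at PD15 and 320 at PD16 against PD14, with 4 members called at PD16 (Edem1 and Xbp1 lost). Without an intensity trend 5 were called (Xbp1 lost). The replicate numbers did not pair the libraries (correlations of same-numbered libraries of -0.214 to 0.159, 2 of 9 above 0.1). With the replicate number as a block, the genes called were 24, 227, 56 and 127 (PD15 and PD16 against PD14, PD16 against PD15, F test), and the members called 2 at PD16 against PD14 (Derl3 and Herpud1), 0 at PD16 against PD15 and 1 in the F test.

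With 1 library left out, the genes called ran from 3 to 92 at PD15 against PD14, 92 to 660 at PD16 against PD14, 14 to 125 at PD16 against PD15, 100 to 354 in the F test and 7 to 82 for the step contrast. Members called ran from 1 to 6 at PD16 against PD14, 0 to 2 at PD16 against PD15 and 1 to 4 in the F test. The count of 1, Derl3, came without PD14 replicate 3 or PD16 replicate 1. The cause of these shifts was not tested. For the 33 members, direction turned in such fits and in no other alternative, for 8 members at PD15 against PD14, 2 at PD16 against PD14, 9 at PD16 against PD15 and 18 in the step contrast. Changes that turned were at most 0.08 in size between days and 0.23 in the step contrast. Among the members given in full, the ranges were -0.0628 to 0.0154 for Herpud1, -0.0389 to 0.00138 for Atf6, -0.146 to 0.00671 for Dnajb9, -0.0501 to 0.0891 for Eif2ak3 and -0.0193 to 0.119 for Ern1 at PD15 against PD14, -0.0670 to 0.0950 for Ern1 at PD16 against PD14, and -0.111 to 0.0510 for Ern1, -0.109 to 0.133 for Creld2 and -0.0702 to 0.105 for Ddit3 at PD16 against PD15. Counting depth was lowest for Ddit3, with 290 to 428 fragments in a library.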
